A study of Mus musculus with 8 samples.

Results

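Genes that set mast cell identity were examined: the receptor gene Kit and the transcription factor genes Gata1, Gata2, Mitf, Tal1, Spi1, Cebpa, Runx1, Lmo2 and Zfpm1. They were chosen by name, as 10 of the 56748 genes counted, and all were present in the count tables. Of these 10 members, 9 had enough counts to be tested among 14942 genes, and Cebpa did not.

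Mast cells are tissue-resident immune cells that arise from hematopoietic progenitors of the bone marrow. Kit is the receptor for stem cell factor and carries the survival signal of the lineage. Gata2 and Mitf are required for mast cells to form, and Gata1, Tal1, Lmo2 and Runx1 act with Gata2 on shared enhancers of blood progenitors. Spi1 (PU.1) and Cebpa are better known for driving the myeloid and granulocyte lineages, and Zfpm1 (FOG1) binds GATA factors and opposes part of their action in mast cells.

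The data were RNA-seq counts of bone marrow-derived mast cells (BMMCs), which are grown from whole bone marrow in interleukin-3, here of young adult C57BL/6 mice with no engineered allele. The Mettl3-RNP group (4 libraries, labelled as Mettl3 KO) had been electroporated with Cas9 ribonucleoproteins against Mettl3, which encodes the catalytic subunit of the m6A (N6-methyladenosine) writer of mRNA. The Pulsed group (4 libraries) was mock transfected and received no Cas9 ribonucleoprotein, so effects of Cas9 or of a cut as such cannot be told apart from those of losing Mettl3. All cells were resting, both groups carry the replicate numbers 1 to 4, and the series describes 4 mice, so libraries were paired by number. The edited cells were a bulk population that keeps untargeted cells, and in bulk RNA fewer cells of a type and less RNA per cell cannot be told apart.

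Total counts lay between 32643260 and 45324826 per library. Expression is given as CPM, counts per 1000000 counts of the library after TMM scaling, which corrects for differences in library composition. The libraries numbered 3 stood apart from the rest in both groups. Transcripts of 12 immediate early genes, which respond within minutes to stimulation or handling, summed to 25496 CPM in Mettl3-RNP 3 and 22015 CPM in Pulsed 3, and to between 602 and 6659.5 CPM in the other 6 libraries. Their part in the levels of the members was not tested. The guide crRNA_Mettl3_1 is shown as a Mettl3 guide that the study lists, with its 3 PAM bases in capitals. It lies at chr14:52537803-52537822 (GRCm39, plus strand), in coding sequence of exon 2 of 11 of the canonical transcript. Whether it made these libraries is not given in the sources used here.
crRNA_Mettl3_1: cacgggactatcactacggaAGG

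Mettl3 was measured first, as the check of the labels. Its transcript stood at 12.3, 9.18, 4.88 and 9.21 CPM in Mettl3-RNP libraries 1 to 4 and at 25.9, 24.5, 11.2 and 26.5 CPM in Pulsed libraries 1 to 4. All 4 pairs were lower in edited cells (log2 fold change −1.30 ± 0.11 SE, edgeR adjusted p = 0.00543), although Pulsed 3 lay below Mettl3-RNP 1. Without the pairing the adjusted p was 0.744. The gene Tox4, on the opposite strand, covers 34.1% of the Mettl3 exons and held 3014 to 8012 counts, and the strand setting of the counting is not given in the sources used here.

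Among the 10 members, Runx1 passed the test across all genes, and it was higher in Mettl3-RNP cells. Runx1 rose by 26.7% (95% interval of the fold 1.13 to 1.42), and Mitf had the next largest difference, 23.3% higher, without passing. The members with the highest levels, Kit and Gata2, had intervals that included no difference, as did Gata1, Tal1, Lmo2 and Zfpm1. The test was the quasi-likelihood test of edgeR with the pair as a block, adjusted over all 14942 genes. By the same test 3.74% of all genes passed at an adjusted p of 0.05 or less, 2.35% as higher and 1.39% as lower, against 1 of 9 members higher and 0 of 9 lower. DESeq2 called 2 members (Runx1 and Mitf, beside 11.7% of the 12334 genes to which it gave an adjusted p) and limma-voom 1 (Runx1, beside 4.3% of all genes), all higher. At an unadjusted p under 0.05 there were 3 members (Runx1, Mitf and Spi1), against 22.5% of all genes. Without the pair numbered 3 no member passed with edgeR, and 5 had an unadjusted p under 0.05, against 22.1% of all genes. The log2 fold change was above 0 for 8 of the 9 members and for 49.8% of all genes. By pair, 9, 7, 7 and 7 of the 9 members were higher in pairs 1 to 4, beside 46.7%, 50.3%, 46.9% and 52% of all genes, and the members share the libraries and are not independent of each other.

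**Figure D1:**
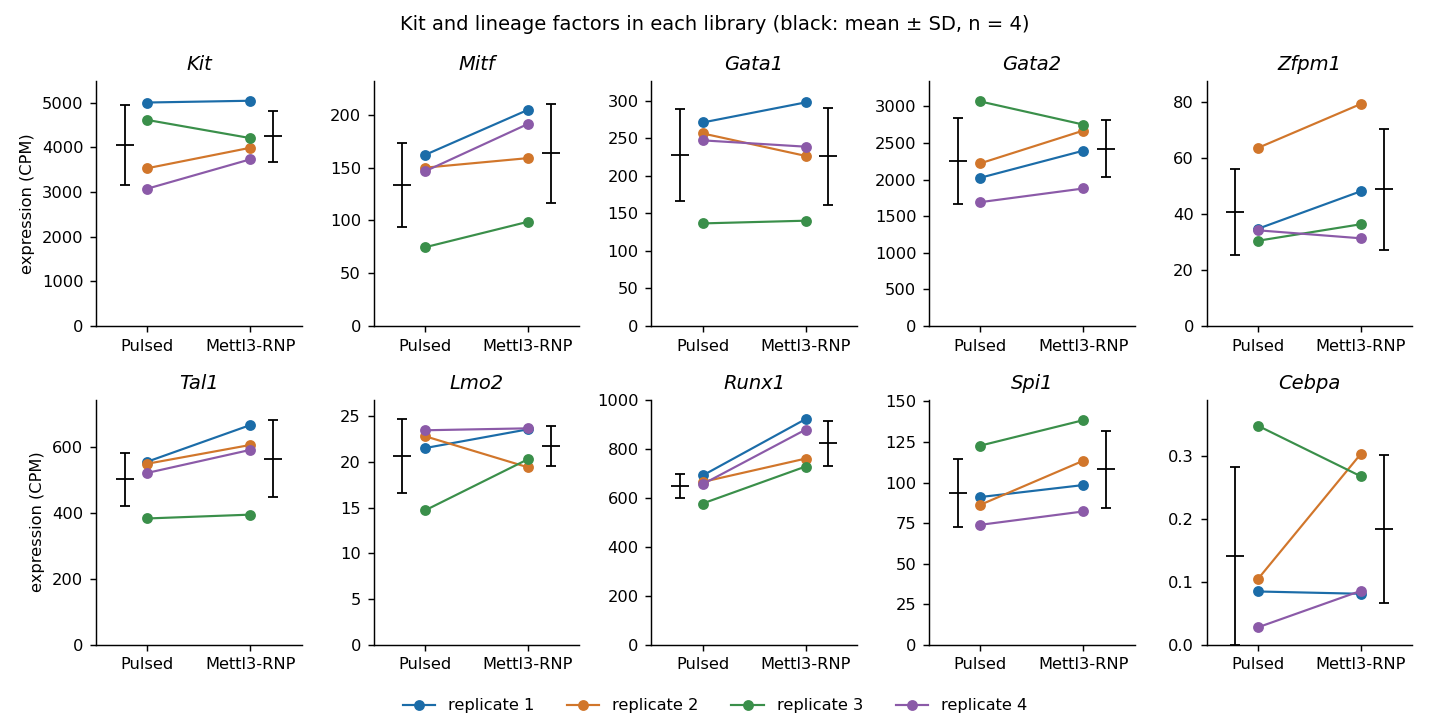
Expression of the 10 members in CPM (y axes, linear from 0, with a scale of their own for each gene) in Pulsed and Mettl3-RNP libraries, with a line joining the libraries of a replicate number and black bars for the mean ± SD (n = 4). In the Runx1 panel the lowest Mettl3-RNP library (728 CPM) lies above the highest Pulsed library (692 CPM), while in the other panels the groups overlap.

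Runx1 encodes the DNA-binding core factor that is needed for blood stem cells to form and that stays active in myeloid cells. Its expression was 922, 761, 728 and 879 CPM in Mettl3-RNP libraries 1 to 4 and 692, 665, 577 and 656 CPM in Pulsed libraries 1 to 4. Every Mettl3-RNP library lay above every Pulsed library, a pattern shared by 2.03% of tested genes. Runx1 was higher in 4 of 4 pairs, as were 15.7% of tested genes, with a log2 fold change of 0.34 ± 0.07 SE (edgeR adjusted p = 0.0448). The difference was below the 1.5-fold used here as a second threshold, which no member reached. Of all genes, 2.06% passed both the adjusted p and that fold. The adjusted p was 0.999 without the pairing, 0.0798 when every gene with at least 1 count was tested, and 0.0826 to 0.273 when a pair was left out, with log2 fold changes of 0.28 to 0.38 in those fits. At unadjusted p Runx1 stayed under 0.05 in each of these alternatives. In GRCm39 Runx1 spans 92398354 to 92623037 of chromosome 16, minus strand. A lncRNA on the opposite strand that covers 0.837% of its exons held 4 to 19 counts.

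Runx1 is transcribed from a distal and a proximal promoter, and the 250 bases before each start are shown because this gene passed the test. They come from RefSeq (GRCm38.p6, minus strand), read in the direction of transcription, and capitals mark an E-box (CACGTG or CATGTG), the site type bound by MITF and related factors. The distal window holds 1 E-box, 71 bases before the start, and the proximal window holds none of the 3 motifs searched.
Runx1 distal, chr16:92826075-92826324: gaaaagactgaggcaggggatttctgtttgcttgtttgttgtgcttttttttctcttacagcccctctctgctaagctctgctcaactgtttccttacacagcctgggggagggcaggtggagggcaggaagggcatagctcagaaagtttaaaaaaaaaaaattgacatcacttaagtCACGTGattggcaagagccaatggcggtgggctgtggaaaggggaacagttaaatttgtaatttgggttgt
Runx1 proximal, chr16:92697330-92697579: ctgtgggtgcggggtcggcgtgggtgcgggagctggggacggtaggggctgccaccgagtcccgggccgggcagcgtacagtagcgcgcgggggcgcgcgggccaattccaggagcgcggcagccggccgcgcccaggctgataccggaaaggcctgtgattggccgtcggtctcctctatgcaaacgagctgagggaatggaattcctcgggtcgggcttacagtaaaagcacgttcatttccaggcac

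Mitf encodes the basic helix-loop-helix factor that acts downstream of Kit and drives many mast cell effector genes. Its level was 205, 159, 98.8 and 192 CPM in Mettl3-RNP libraries 1 to 4 and 162, 150.1, 74.6 and 147 CPM in Pulsed libraries 1 to 4. The groups overlapped, and both libraries numbered 3 lay well below the rest. Mitf was higher in 4 of 4 pairs. The log2 fold change was 0.30 ± 0.08 SE (95% interval 0.12 to 0.48, edgeR adjusted p = 0.0709). The call changed with the processing: the adjusted p was 0.0477 with library sizes left unscaled, 0.0428 when each gene needed 10 counts in every sample, and 0.0115 in the DESeq2 Wald test. In GRCm39 Mitf spans 97783950 to 97998323 of chromosome 6, plus strand.

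Mitf has several alternative starts, and which of them these cells used was not measured. The start nearest to the gene's 3′ end is shown only because it is the member window with the most motif matches. Capitals mark GATA sites (GATA with A or T before it and A or G after it, on either strand), which lie 202 and 13 bases before the start (RefSeq, GRCm38.p6, plus strand). Of the other Mitf windows, 1 holds a GATA site 36 bases before its start and 1 holds a RUNX site (TGTGGT or TGCGGT, either strand) 81 bases before its start.
Mitf, chr6:97991533-97991782: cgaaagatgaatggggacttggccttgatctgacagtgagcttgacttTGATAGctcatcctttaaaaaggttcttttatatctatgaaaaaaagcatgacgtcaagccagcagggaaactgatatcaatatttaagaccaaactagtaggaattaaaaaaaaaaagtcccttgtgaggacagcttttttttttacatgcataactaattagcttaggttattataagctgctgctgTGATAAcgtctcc

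RefSeq gave 14 windows for 8 of the members (Spi1 and Lmo2 had no entry). Any entry on a chromosome that holds no member was left out. The Kit windows, chr5:75574737-75574986 and chr5:75574741-75574990, overlap almost wholly but are counted separately. A GATA site was in 3 of the 14 (26.5% of 32851 windows genome-wide), a RUNX site in 1 of 14 (18.6%) and an E-box in 1 of 14 (17.6%). The third GATA window was that of Tal1, with the site 205 bases before the start. A match describes letters in the window, and neither binding nor the use of each start was measured here.

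**Figure D2:**
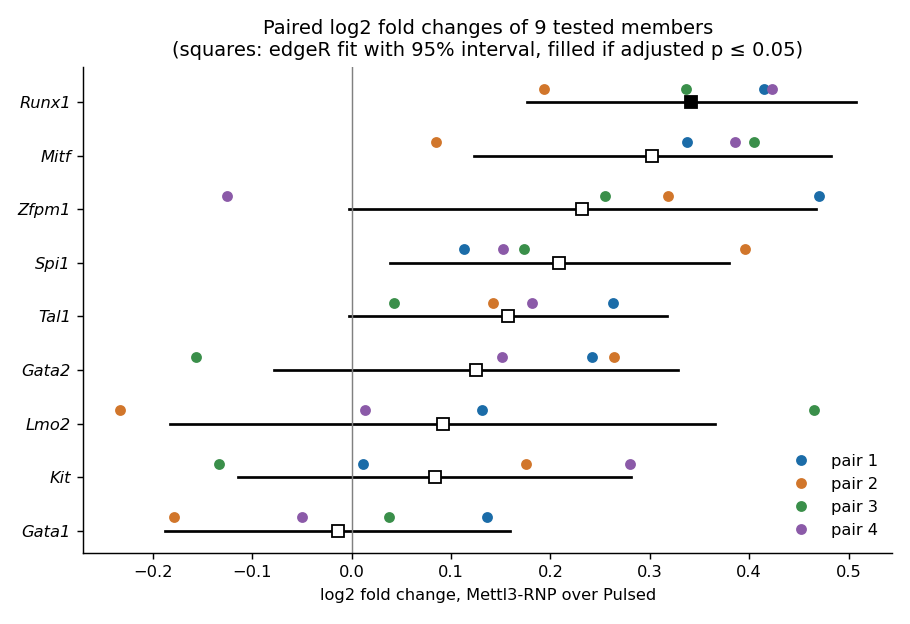
Log2 fold changes of the 9 tested members, Mettl3-RNP over Pulsed (x axis), as edgeR estimates (squares, filled at an adjusted p of 0.05 or less) with 95% intervals (bars) and the difference of each pair (coloured points). The 4 pairs of Runx1, Mitf, Spi1 and Tal1 all lie above 0, and only Runx1 has a filled square.

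Kit was among the most abundant transcripts, above 99.7% of tested genes in level per length. It stood at 5042, 3989.8, 4206 and 3731 CPM in Mettl3-RNP libraries 1 to 4 and at 5002, 3532, 4612 and 3074 CPM in Pulsed libraries 1 to 4. The groups overlapped through most of their range. Its log2 fold change of 0.08 ± 0.09 SE had an interval of −0.11 to 0.28 (edgeR adjusted p = 0.626), and Kit was higher in 3 of 4 pairs. Its interval spans folds of 0.924 to 1.21. In GRCm39 Kit spans 75735576 to 75817404 of chromosome 5, plus strand.

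Genes of Kit signalling were described from a list of 25, of which 24 were tested. None passed in either direction with edgeR, and 6 had an unadjusted p under 0.05 (22.5% of all genes), 4 of them higher. DESeq2 called 5 of the 24 (11.7% of all genes with an adjusted p) and limma-voom none, and the median log2 fold change of the list was 0.02, beside −0.0013 for all genes. Kitl, which encodes the Kit ligand stem cell factor, held 0 to 21 counts per library and was not tested. By level per length the highest were Ptpn6, the phosphatase SHP-1 (204 CPM per kb in Pulsed libraries), and Inpp5d, the lipid phosphatase SHIP-1 (150.2 CPM per kb). Ptpn6 had a log2 fold change of −0.45 ± 0.11 SE (edgeR adjusted p = 0.0665) and was lower in 4 of 4 pairs. Inpp5d had a log2 fold change of 0.16 ± 0.07 SE (edgeR adjusted p = 0.228).

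Gata2, the zinc-finger factor that starts and keeps up the mast cell program, was also near the top of all genes. Its values were 2394, 2669, 2751 and 1878 CPM in Mettl3-RNP libraries 1 to 4 and 2025, 2222, 3067 and 1692 CPM in Pulsed libraries 1 to 4. Pulsed 3 was the highest library and its pair was the one in which Gata2 was lower after editing. The log2 fold change was 0.13 ± 0.09 SE (95% interval −0.08 to 0.33, edgeR adjusted p = 0.457). The lncRNA Spehd on the opposite strand overlaps 921 bases of Gata2 exons and held 39 to 133 counts.

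Gata1, the GATA factor that takes over from Gata2 in erythroid cells, stood at 298, 226, 140.1 and 239 CPM in Mettl3-RNP libraries 1 to 4 and at 271, 256, 137 and 247 CPM in Pulsed libraries 1 to 4. The libraries of each number lay close together and those numbered 3 were by far the lowest. Its log2 fold change was −0.01 ± 0.07 SE (95% interval −0.19 to 0.16, edgeR adjusted p = 0.936), and its sign flipped with unscaled library sizes (0.02), which moved the median of all genes by a like amount, from −0.0013 to 0.03. Gata1 was higher in 2 of 4 pairs.

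Zfpm1, the GATA cofactor FOG1, stood at 48.1, 79.3, 36.4 and 31.3 CPM in Mettl3-RNP libraries 1 to 4 and at 34.7, 63.6, 30.5 and 34.2 CPM in Pulsed libraries 1 to 4. The libraries numbered 2 were the highest of both groups. The log2 fold change was 0.23 ± 0.10 SE (95% interval −0.003 to 0.47, edgeR adjusted p = 0.228), with pair 4 lower and the other 3 pairs higher.

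Within a library the balance of the GATA factors does not depend on library size. Gata2 CPM divided by Gata1 CPM gave 8.05, 11.8, 19.6 and 7.87 in Mettl3-RNP libraries 1 to 4 and 7.48, 8.67, 22.5 and 6.85 in Pulsed libraries 1 to 4. The ratio was highest in the libraries numbered 3 of both groups. The mean paired difference was 0.14 ± 0.26 on the log2 scale (SD, 4 pairs, exact two-sided sign-flip permutation test p = 0.375, where the smallest p that 4 pairs allow is 0.125).

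Tal1 encodes the helix-loop-helix factor at the center of the complex that joins GATA factors to E-boxes, and Lmo2 is the bridging subunit of that complex. Tal1 stood at 665, 605, 394 and 590.1 CPM in Mettl3-RNP libraries 1 to 4 and at 554, 548, 382 and 520.3 CPM in Pulsed libraries 1 to 4. It was higher in 4 of 4 pairs, but the groups overlapped and the log2 fold change of 0.16 ± 0.07 SE did not pass (95% interval −0.002 to 0.32, edgeR adjusted p = 0.228). Lmo2 stood at 23.6, 19.4, 20.3 and 23.7 CPM in Mettl3-RNP libraries 1 to 4 and at 21.5, 22.8, 14.7 and 23.5 CPM in Pulsed libraries 1 to 4. Its log2 fold change was 0.09 ± 0.12 SE (95% interval −0.18 to 0.37, edgeR adjusted p = 0.707). Pair 3 differed by 0.47 and pair 2 by −0.23, and without pair 3 the Lmo2 value was −0.03.

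Partners of the GATA and TAL1 complexes were described from a list of 19, of which 18 were tested and Zfpm2 was at 0 in all libraries. None passed in either direction with edgeR. At an unadjusted p under 0.05 there were 8 of 18 (22.5% of all genes), of which 4 were higher and 4 lower, with a median of 0.04. DESeq2 called 5 (11.7% of all genes with an adjusted p) and limma-voom none. Fli1, an ETS factor that binds with GATA and RUNX factors, had the highest level per length (143.5 CPM per kb in Pulsed libraries), with a log2 fold change of 0.33 ± 0.11 SE (edgeR adjusted p = 0.127). Hhex, a homeobox factor of early blood cells, followed at 77.0 CPM per kb with a log2 fold change of −0.09 ± 0.10 SE (edgeR adjusted p = 0.665).

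Spi1 encodes PU.1, the ETS factor that opposes GATA1 in erythroid cells but works beside GATA2 in mast cells. Its values were 98.4, 113, 138 and 82.1 CPM in Mettl3-RNP libraries 1 to 4 and 91.0, 86.2, 123 and 73.9 CPM in Pulsed libraries 1 to 4. Spi1 was higher in 4 of 4 pairs within overlapping groups, and the libraries numbered 3 were the highest. The log2 fold change was 0.21 ± 0.07 SE (95% interval 0.04 to 0.38, edgeR adjusted p = 0.144). The unadjusted p was 0.0223.

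The ratio of Spi1 to Gata1 in CPM was 0.331, 0.501, 0.988 and 0.344 in Mettl3-RNP libraries 1 to 4 and 0.336, 0.337, 0.899 and 0.299 in Pulsed libraries 1 to 4. The libraries numbered 3 were again apart from the others in both groups. The mean paired difference was 0.22 ± 0.25 on the log2 scale (SD, 4 pairs, exact two-sided sign-flip permutation test p = 0.25), and 3 of 4 pairs were higher in Mettl3-RNP cells.

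Cebpa, the factor that turns progenitors to granulocytes and that mast cell progenitors switch off, was close to undetected. Its raw counts were 3, 13, 8 and 3 in Mettl3-RNP libraries 1 to 4 and 3, 4, 14 and 1 in Pulsed libraries 1 to 4. The highest Pulsed count had an exact 95% Poisson interval of 7.65 to 23.5 and the lowest one of 0.0253 to 5.57, which cover counting error only. Cebpa did not pass the filter on low counts. In the fit without that filter its log2 fold change was 0.61 ± 1.03 SE, so a difference was not detectable at this depth. The ratio of Gata2 to Cebpa in CPM lay between 8789 and 61769 and its mean paired difference was −0.56 ± 0.96 on the log2 scale (SD, 4 pairs, exact two-sided sign-flip permutation test p = 0.5).

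Compared per length, the members fell into tiers in the Pulsed libraries, taking CPM per kb of the canonical transcript. Kit (770.5 ± 171 CPM per kb, SD, n = 4) and Gata2 (629 ± 164) led, with overlapping ranges. Tal1 (119.9 ± 19.3), Gata1 (119.7 ± 32.4) and Runx1 (110.4 ± 8.42) came next and their ranges also overlapped. Spi1 (46.0 ± 10.2) and Mitf (26.9 ± 8.0) followed, each with a range that did not meet its neighbours. Lmo2 (11.2 ± 2.19) and Zfpm1 (9.06 ± 3.42) overlapped, and Cebpa stood at 0.0537 ± 0.0540 CPM per kb. Per kb of all annotated exons together the order was the same but the spacing differed, with Gata2 at 281 CPM per kb, Tal1 at 97.9, Gata1 at 91.7 and Runx1 at 51.1.

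Levels also differed between replicate numbers. For the 9 tested members the range of the means of the replicate numbers had a median of 0.70 on the log2 scale. The absolute mean paired difference had a median of 0.16, beside 0.87 and 0.18 over all tested genes. A range (highest minus lowest) tends to exceed a mean difference for any gene, so the measures are given as descriptions. For Runx1 the range was 0.30 and the mean paired difference 0.34. Replicate 3 held the lowest mean for 5 members (Gata1, Mitf, Tal1, Runx1 and Lmo2) and the highest for 2 (Gata2 and Spi1), while over all tested genes 33.7% were lowest and 37.9% highest there. In the Pulsed group replicate 3 differed from the mean of the other 3 libraries by −1.03 for Mitf, −0.92 for Gata1, −0.50 for Tal1, 0.64 for Gata2 and 0.56 for Spi1 on the log2 scale. In the Mettl3-RNP group the same differences were −0.90, −0.85, −0.65, 0.26 and 0.51. Zfpm1 differed by 0.94 (Pulsed) and 1.06 (Mettl3-RNP) in replicate 2.

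Without the pair numbered 3 the log2 fold changes were 0.15 for Kit, 0.22 for Gata2, 0.27 for Mitf and 0.22 for Spi1, and none of these passed (edgeR adjusted p = 0.379, 0.191, 0.132 and 0.200). With each pair left out in turn the log2 fold change ranged from 0.03 (without replicate 4) to 0.15 for Kit, from 0.05 (without replicate 1) to 0.22 for Gata2, from 0.09 (without replicate 1) to 0.19 for Tal1 and from 0.12 to 0.36 (without replicate 4) for Zfpm1. Of the 12 immediate early genes, none passed between the groups with edgeR or limma-voom, and DESeq2 called 1 (11.7% of all genes with an adjusted p). At an unadjusted p under 0.05 there were 3, all higher, beside 22.5% of all genes in either direction and 11.8% as higher. The log2 fold change was above 0 for 11 of the 12, beside 49.8% of all genes, with a median of 0.30.

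**Figure D3:**
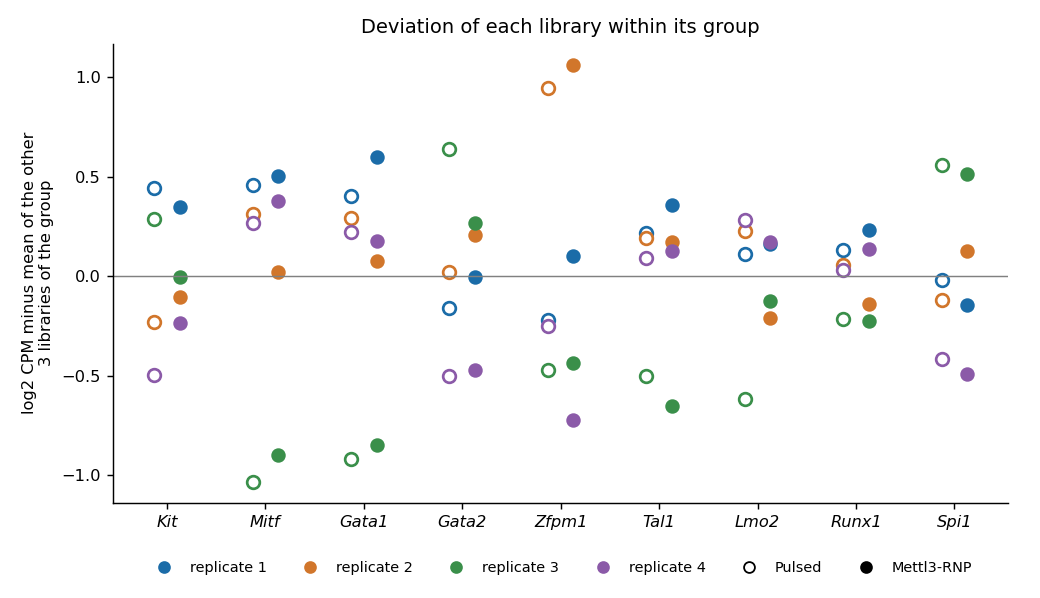
Log2 CPM of each library minus the mean of the other 3 libraries of its group (y axis) for the 9 tested members (x axis), with open points for Pulsed, filled points for Mettl3-RNP and a colour for each replicate number. Replicate 3 is lowest for Gata1 and Mitf in both groups (−1.03 to −0.85), and replicate 2 is highest for Zfpm1 (0.94 and 1.06).

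MITF forms dimers with the related factors TFE3, TFEB and TFEC, and a list of 11 such partners and regulators held 10 tested genes. None passed in either direction with edgeR and the median log2 fold change was 0.20. At an unadjusted p under 0.05 there were 3 of 10, all higher, beside 22.5% of all genes in either direction and 11.8% as higher. DESeq2 called 2 (11.7% of all genes with an adjusted p) and limma-voom none. Hint1, which can hold MITF inactive, had the highest level per length (91.3 CPM per kb in Pulsed libraries) with a log2 fold change of −0.01 ± 0.07 SE (edgeR adjusted p = 0.975). Ctnnb1, the coactivator beta-catenin, stood at 54.1 CPM per kb with a log2 fold change of 0.19 ± 0.12 SE (edgeR adjusted p = 0.426).

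Factors that compete or cooperate with the members in other blood lineages made a list of 32, of which 26 were tested. None passed in either direction with edgeR, and 7 of 26 had an unadjusted p under 0.05, all of them higher, beside 22.5% of all genes in either direction and 11.8% as higher. The median was 0.15, DESeq2 called 3 (11.7% of all genes with an adjusted p) and limma-voom none. The highest per length were Id2, an inhibitor of helix-loop-helix factors (351 CPM per kb in Pulsed libraries), and Bhlhe40, a helix-loop-helix repressor (188 CPM per kb). Their log2 fold changes were −0.01 ± 0.14 SE for Id2 (edgeR adjusted p = 0.982) and 0.22 ± 0.07 SE for Bhlhe40 (edgeR adjusted p = 0.125).

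Of 22 mast cell genes that these factors are known to bind or control, 20 were tested, 2 fell and none rose, beside 1.39% lower and 2.35% higher among all genes. Cpa3, the granule carboxypeptidase, stood at 16657, 25514, 22784 and 28133 CPM in Mettl3-RNP libraries 1 to 4 and at 20416, 35744, 28382 and 37159 CPM in Pulsed libraries 1 to 4. It was lower in 4 of 4 pairs within overlapping groups, with a log2 fold change of −0.37 ± 0.07 SE (edgeR adjusted p = 0.0328). Siglecf, a sialic acid-binding receptor, was scarce, at 2.31, 1.42, 1.67 and 0.855 CPM in Mettl3-RNP libraries 1 to 4 and at 5.15, 5.25, 3.38 and 3.42 CPM in Pulsed libraries 1 to 4. Its groups did not overlap, which held for 1.2% of genes in the lower direction, and its log2 fold change was −1.50 ± 0.23 SE (edgeR adjusted p = 0.0199).

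Neither call held throughout. Without the pairing the adjusted p was 0.999 for Cpa3 and 0.722 for Siglecf, and with at least 10 counts required in every sample it was 0.0583 for Cpa3. When a pair was left out it ranged from 0.0472 to 0.159 for Cpa3, passing only without replicate 1, and from 0.0158 to 0.0976 for Siglecf, passing without replicates 1, 3 or 4. The list had 6 of 20 genes at an unadjusted p under 0.05 (22.5% of all genes), a median of 0.01, 5 calls by DESeq2 and 2 by limma-voom (11.7% and 4.3% of all genes with an adjusted p). Its highest genes per length were Cpa3 (20613 CPM per kb in Pulsed libraries) and Cma1, the chymase of these cells (7356 CPM per kb), which had a log2 fold change of 0.14 ± 0.08 SE (edgeR adjusted p = 0.365).

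**Figure D4:**
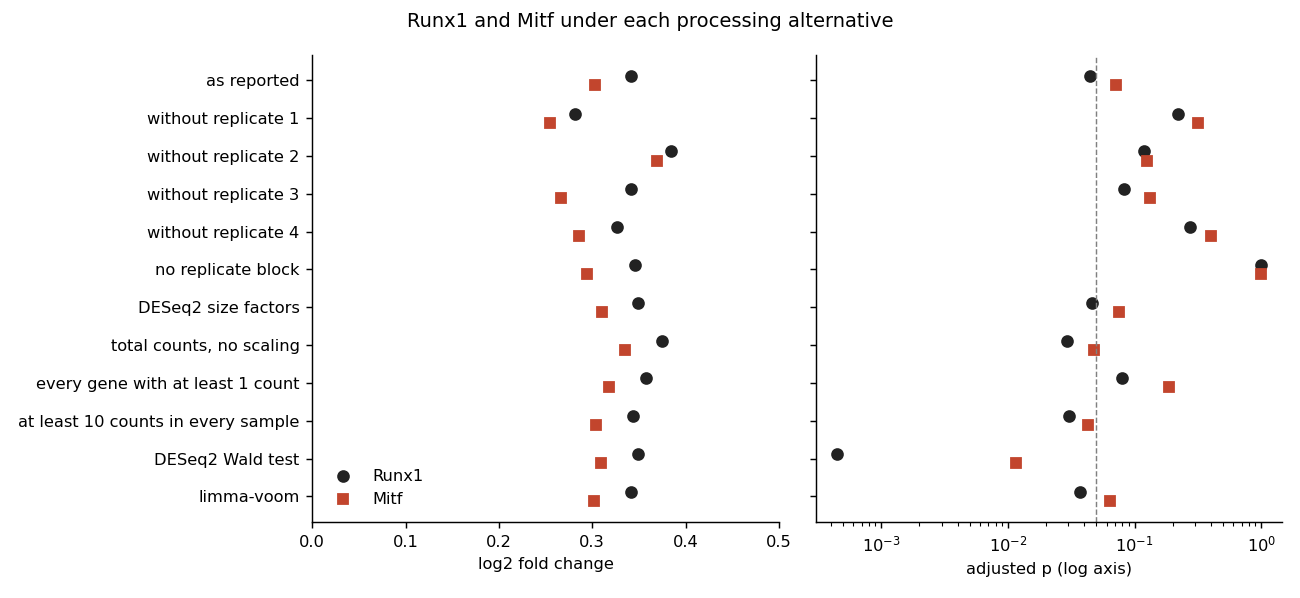
Log2 fold change (left, linear axis) and adjusted p (right, log axis with a dashed line at 0.05) of Runx1 (circles) and Mitf (squares) as reported and under 11 processing alternatives (rows). The log2 fold changes stay between 0.26 and 0.38, while the adjusted p moves across the line.

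The label of mast cells was checked against markers. All 8 mast cell markers were detected in every library, with summed levels of 35861 to 52122 CPM in Mettl3-RNP and 41223 to 58728 CPM in Pulsed libraries, and 1 of them (Cpa3) passed as lower. On average Cpa3 was the largest part of these sums, while Mcpt4 was scarce (2.91 CPM in Pulsed and 3.23 CPM in Mettl3-RNP libraries). The mast cell protease genes Tpsab1 and Mcpt9, from the list of 22 above, held at most 9 and 1 counts and were not tested. Neutrophil markers summed to at most 0.497 CPM, and S100a8, S100a9, Elane and Camp were at 0 in all libraries. Dendritic cell markers summed to at most 3.83 CPM, lymphoid markers to at most 1.57 CPM (Ms4a1 at 0) and erythroid markers to at most 10.8 CPM (Hba-a2 at 0). None of those 3 lists had a call with edgeR or limma-voom, and 1 erythroid marker was called by DESeq2.

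Macrophage markers summed to 7.97 to 35.9 CPM in Mettl3-RNP and 9.61 to 15.8 CPM in Pulsed libraries. Of the 4 tested, 1 fell and none rose, beside 1.39% lower and 2.35% higher among all genes. It was Adgre1 (F4/80), with 0.888, 1.52, 1.47 and 0.827 CPM in Mettl3-RNP libraries 1 to 4 against 2.25, 2.45, 3.18 and 2.25 CPM in Pulsed libraries 1 to 4 (edgeR adjusted p = 0.0435, 0.0906 to 0.110 with a pair left out, 0.0507 with unscaled library sizes and 0.843 without the pairing). The defining macrophage markers Csf1r and C1qa held at most 18 and 1 counts. The highest were Cd68, at 4.50 CPM in Pulsed and 16.7 CPM in Mettl3-RNP libraries on average (log2 fold change 1.63), and Lyz2, at 5.17 and 5.43 CPM. Neither passed (edgeR adjusted p = 0.142 and 0.977). DESeq2 and limma-voom each called 1 of the 4 tested macrophage markers (11.7% and 4.3% of all genes with an adjusted p).

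Of the 6 basophil markers, all tested, Il18rap (log2 fold change −0.79 ± 0.14 SE, edgeR adjusted p = 0.0324) and Ifitm1 (−0.60 ± 0.13 SE, edgeR adjusted p = 0.0471) fell, and none rose, beside 1.39% lower and 2.35% higher among all genes. DESeq2 called 3 of the 6 and limma-voom 2 (11.7% and 4.3% of all genes with an adjusted p). The list median was −0.64, and 5 of the 6 were lower on average. The other, Cd200r3, at 572 CPM in Pulsed and 688 CPM in Mettl3-RNP libraries on average, was higher in 4 of 4 pairs without passing (log2 fold change 0.25 ± 0.09 SE, edgeR adjusted p = 0.151). The list summed to 1795 to 2420.4 CPM in Mettl3-RNP and 2244 to 3323 CPM in Pulsed libraries, mostly from Ifitm1, while the basophil protease Mcpt8 was at 1.88 and 2.56 CPM on average. With a pair left out the adjusted p of Il18rap ranged from 0.00176 to 0.106 and passed only without replicate 4, and that of Ifitm1 ranged from 0.0341 to 0.109 and passed only without replicate 1. With unscaled library sizes the adjusted p of Ifitm1 was 0.0568, and without the pairing it was 0.725 for Il18rap and 0.999 for Ifitm1. Megakaryocyte markers summed to 2569.6 to 2677 CPM in Mettl3-RNP and 2216 to 2319 CPM in Pulsed libraries. These sums came mostly from Itga2b (log2 fold change 0.18) and Gp1ba (0.33), while Itgb3 (−1.12) and Gp9 (−0.69) had the opposite sign. None of these 4 passed with edgeR, and the list median was −0.26. At an unadjusted p under 0.05 there were 2 of the 4, both higher, beside 22.5% of all genes in either direction and 11.8% as higher. DESeq2 called 1 (11.7% of all genes with an adjusted p) and limma-voom none. The part of other cell types in the member values was not tested.

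Features of the transcript itself were described last. The DNA letters GGACT, a form of the sequence context in which METTL3 methylates adenosine, were counted in the canonical transcripts (GENCODE). The members had a median of 0.956 per kb, beside 1.04 for 12056 tested protein-coding genes, and 4 of 10 members lay above that median. Spi1 had the densest, with 6 matches or 2.95 per kb, above 98.3% of those genes. Runx1 also had 6 matches, at 1.02 per kb, Mitf had 3 at 0.604 per kb, Kit 2 at 0.380 per kb and Gata2 1 at 0.279 per kb. Exon junctions were sparse, with a median of 1.72 per kb for the members and 2.62 for those genes, and 8 of 10 members lay below the latter. Methylation was not measured in these libraries, and a match is not a modified site.

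The genes whose pattern over the 8 libraries was most like that of Kit, Gata2 and Mitf were taken from 8504 genes averaging at least 10 CPM, by the root mean square difference of centred log2 CPM. For Kit they were Inpp5k (0.0722), Baz2a (0.0770) and Sp110 (0.0827). For Gata2 they were Hs6st1 (0.0765), Csnk1e (0.0911) and Mark4 (0.0964), and for Mitf they were Amdhd2 (0.0851), Vipas39 (0.0910) and Mlycd (0.0946). The 8 libraries share 4 replicate numbers and replicate 3 stands apart in both groups, so these likenesses are descriptions.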

How the data were processed

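Poly-A RNA of 8 BMMC libraries was sequenced by the authors. Per the labels and the study's methods, reads were aligned to GRCm39 with HISAT2 2.2.1 and counted per gene with featureCounts 2.0.1 (FastQC 0.11.9 for quality). The deposited values are whole-number raw counts, 1 table per library. The strand and multimapping settings are not given in the sources used here. The batch correction named in the methods is not visible in these counts. GENCODE vM39 named 56017 of 56748 gene IDs (98.7%).

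Genes were filtered with filterByExpr (14942 kept), scaled by TMM and tested with the quasi-likelihood test of edgeR 4.0.16 (R 4.3.3) with the replicate number as a block, adjusted by Benjamini-Hochberg. The alternatives used DESeq2 1.42.0, limma 3.58.1 and other filters, scalings and subsets, and the code was tested on simulated counts. Standard errors come from the test statistic. Log2 CPM used a prior count of 2. Same-numbered libraries deviated together over 11985 genes with at least 1 CPM (correlations 0.825, 0.489, 0.879 and 0.765, at most 0.183 between different numbers). Log2 CPM was first centred within each group. Centring lowers the correlations between different numbers where those of the same number are high, so this contrast is partly built in. The numbers come from the sample titles, and reading them as mice is an inference. Libraries of a group differed beyond sampling noise (lowest chi-square divided by its degrees of freedom, 52.6). Reads carry no molecular identifiers.

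The members and gene lists were chosen with earlier results of these data known. Named were the members, Mettl3, list genes that passed (adjusted p of 0.05 or less), the 2 highest per length of each partner list, the 3 nearest profiles of Kit, Gata2 and Mitf, and defining or highest markers. Mcpt4, Mcpt8, Mcpt9, Tpsab1, Cd200r3, Itgb3, Gp9, Csf1r, C1qa, Kitl and Zfpm2 were named beside these after their values had been seen.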

Additional observations from a re-analysis of the deposited data

Results flagged for a closer look

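Of 28 groups of 4 libraries checked (the CPM of the members and Mettl3 and the log2 ratios), 3 held a library that stood apart from the other 3 by Dixon's ratio (gap to the nearest library over the range) at the 95% level, where about 1.4 are flagged by chance. Zfpm1 was at 63.6 CPM in Pulsed 2, above the other Pulsed libraries (30.5 to 34.7 CPM), with a Dixon's ratio of 0.871. Mettl3 was at 11.2 CPM in Pulsed 3, below the other Pulsed libraries (24.5 to 26.5 CPM), with a ratio of 0.868. The log2 ratio of Spi1 to Gata1 was −0.15 in Pulsed 3, above the other Pulsed libraries (−1.74 to −1.57), with a ratio of 0.893. Both libraries numbered 3 also held the highest summed level of immediate early genes, and its part in these values was not tested.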

How the results depend on the processing

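The pairing carried the calls: with no replicate block, 0 genes passed with or without the fold limit (579 at an unadjusted p under 0.05) and 0 members (Runx1 alone at an unadjusted p under 0.05), and the log2 fold changes of Runx1 and Mettl3 were 0.35 and −1.31 without passing. Past both thresholds the count was 308 as reported, 579 with every gene of at least 1 count, 505 with the DESeq2 Wald test and 26 to 331 with a pair left out, lowest without replicate 2. At the adjusted p alone it was 559 as reported and 993, 1449 and 26 to 383 in the same fits, and 959 with at least 10 counts in every sample. Members called numbered 1 as reported and 2 with total counts, with at least 10 counts in every sample and with DESeq2 (Runx1 and Mitf). They numbered 0 with every gene of at least 1 count and 0 with any pair left out. With a pair left out, 1 to 5 of 9 members had an unadjusted p under 0.05, beside 13.4% to 22.1% of all genes. The 5 members and the 22.1% both came from the fit without replicate 3, and the other fits had 1 or 2 members. Gata1 turned from −0.0140 to 0.0188 with total counts, to 0.00158 with every gene (the median of all genes moved from −0.0013 to 0.0318 and 0.0636 in these fits), and ranged from −0.0999 to 0.0346 with a pair left out. Lmo2 turned to −0.0322 without replicate 3 (up to 0.195 without another pair). Kit, Gata2, Tal1, Spi1 and Zfpm1 kept their direction and stayed uncalled in all 11 alternatives. The 3 ratios kept their direction, but with a pair left out the log2 difference ranged from 0.0376 (without replicate 2) to 0.250 (without replicate 3) for Gata2 to Gata1, from 0.105 (without replicate 2) to 0.305 for Spi1 to Gata1 and from −0.848 to −0.249 (without replicate 4) for Gata2 to Cebpa, and the paired test of 4 pairs cannot reach a p of 0.05. Where a setting changed a call, the cause was not tested. With pairs left out, 3 pairs remain. Depth limits Cebpa, at 1 to 14 counts.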
